A study of Arabidopsis thaliana with 119 samples.

Results

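Across 5 accessions of Arabidopsis thaliana, 7 genes of the 32833 in the count table were chosen by their response to drought, nitrogen deficiency or both, which differed strongly from accession to accession. They are BGLU1 (AT1G45191), AT1G34060, AT2G29370, AT3G43670, AT3G28270, AT1G15410 and AT3G44970. The values that selected them are the changes under stress within each accession and the test of whether those changes differ among accessions, so these are given here as a description, with no test. The study grew the accessions Tsu-0, Sha, Cvi-0, Bur-0 and Col-0 side by side on the Phenoscope, a robot that waters each pot to a set soil water content, and sequenced RNA from rosettes of plants 31 days after sowing. All plants had an 8 h photoperiod and had spent 23 days on the robot. The control, W+N+, received 160.45 ± 7.96 ml of nutrient solution with 5 mM nitrate in total. Drought, W-N+, received 50.85 ± 4.67 ml at 5 mM nitrate, and so also less nitrate in total than the control. Effects of less water and of less nitrate on the drought responses cannot be told apart. Nitrogen deficiency, W+N-, received 161.93 ± 11.07 ml at 0.5 mM nitrate. The combined stress, W-N-, received 50.70 ± 4.10 ml at 1.5 mM nitrate. Its solution held more nitrate per volume than that of W+N-, but the nitrate supplied in total, volume times concentration, was similar. Each of the 20 groups of accession and treatment had 6 libraries, except Bur-0 W+N+ with 5. As the labels do not say if the libraries of a group are from different plants, p-values cover the spread among these libraries, which may be technical.

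The members belong to different gene classes. Beta-glucosidases such as BGLU1 belong to a family of glycosyl hydrolases that remove glucose from glucosides, many of which are stored defence compounds or inactive hormone conjugates. AT1G34060 encodes a pyridoxal phosphate-dependent transferase of the group around TAA1, the aminotransferase that converts tryptophan to indole-3-pyruvate in auxin synthesis. AT2G29370 lies in a cluster of short-chain dehydrogenases related to tropinone reductases, and AT1G15410 is annotated as a member of the aspartate-glutamate racemase family, enzymes that interconvert the L and D forms of amino acids. AT3G44970 encodes a cytochrome P450 of the CYP708 family, to which the thalianol hydroxylase CYP708A2 belongs. AT3G43670 encodes a copper amine oxidase, a class of enzymes that oxidise polyamines and release hydrogen peroxide. AT3G28270 encodes a transmembrane protein with a DUF677 domain that is related to AT14A and is known as At14a-Like1, a gene that promotes growth and proline accumulation when water is scarce. Nitrate supply and water supply each change the expression of a large share of leaf genes in Arabidopsis, and natural accessions carry different alleles of many of them.

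Total counts per library ran from 9698708 to 110420763, with a median of 17998283. All 7 genes passed the filter on low counts, as did 20025 genes in all. The libraries carry one of the codes P3ID33 (60 libraries) and P3ID34 (59 libraries) in their titles, with 3 libraries per group and code except for Bur-0 W+N+ with 2 under P3ID34; the labels do not say what the code stands for. The summed level of 4 leaf marker genes ran from 13290 to 71747 CPM (read counts scaled by library size). The summed level of 6 floral genes was at most 9.05 CPM, in a library of Cvi-0 W+N-, while the highest group median was 5.04 CPM in Sha W+N+, and PI and AP3 had a median of 0 and 0.020 CPM. The summed level of 4 root genes was 6.20 to 54.5 CPM, nearly all of it PYK10, while CASP2 and PRX57 had a median of 0. In 5 libraries the distance to their group was more than 1.5 times the median distance (Tsu-0 W+N- d, Sha W+N- b, Cvi-0 W+N+ c, Col-0 W+N+ f and Bur-0 W-N- c), and without them no response of the 7 genes moved by more than its replicate spread.

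Because the members were selected on it, the test of an accession-by-stress interaction only shows where they stood. Among the 13809 genes whose mean reached 5 CPM, AT3G43670, AT2G29370 and AT1G34060 had the ranks 1, 2 and 3 by the interaction with nitrogen deficiency, BGLU1 had rank 5 and AT3G28270 rank 6. For the interaction with combined stress BGLU1 had rank 1, AT1G34060 rank 2 and AT1G15410 rank 8. For the interaction with drought BGLU1 had rank 5 and AT3G44970 rank 8. Over all 20025 genes, 0.619% passed an adjusted p of 0.05 (edgeR's quasi-likelihood test, Benjamini-Hochberg) in the drought interaction, 16.1% in the nitrogen interaction and 13.5% in the combined interaction. Ranks between those of the members belong to genes that are not described here.

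The responses of the 7 genes in 5 accessions make 35 pairs of gene and accession per stress. In drought, all stressed libraries lay above all control libraries in 4 of the 35 pairs and below them in 0, against 1.17% and 1.24% of the pairs over all genes. A fitted change of at least 1 on the log2 scale occurred in 1 pair in drought, AT3G44970 in Cvi-0, against 3.34% over all genes. In nitrogen deficiency, the stressed libraries lay above the controls in 23 pairs (9.49% over all genes) and below them in 2 (9.15%), and 23 pairs changed by at least 1 (10% over all genes). In combined stress, 24 pairs lay above (6.13% over all genes), 0 below (6.98%), and 17 changed by at least 1 (6.13%). Since the members were chosen by these same responses, the counts describe them and support nothing further. The heatmap of fitted changes gives every value.

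**Figure D1:**
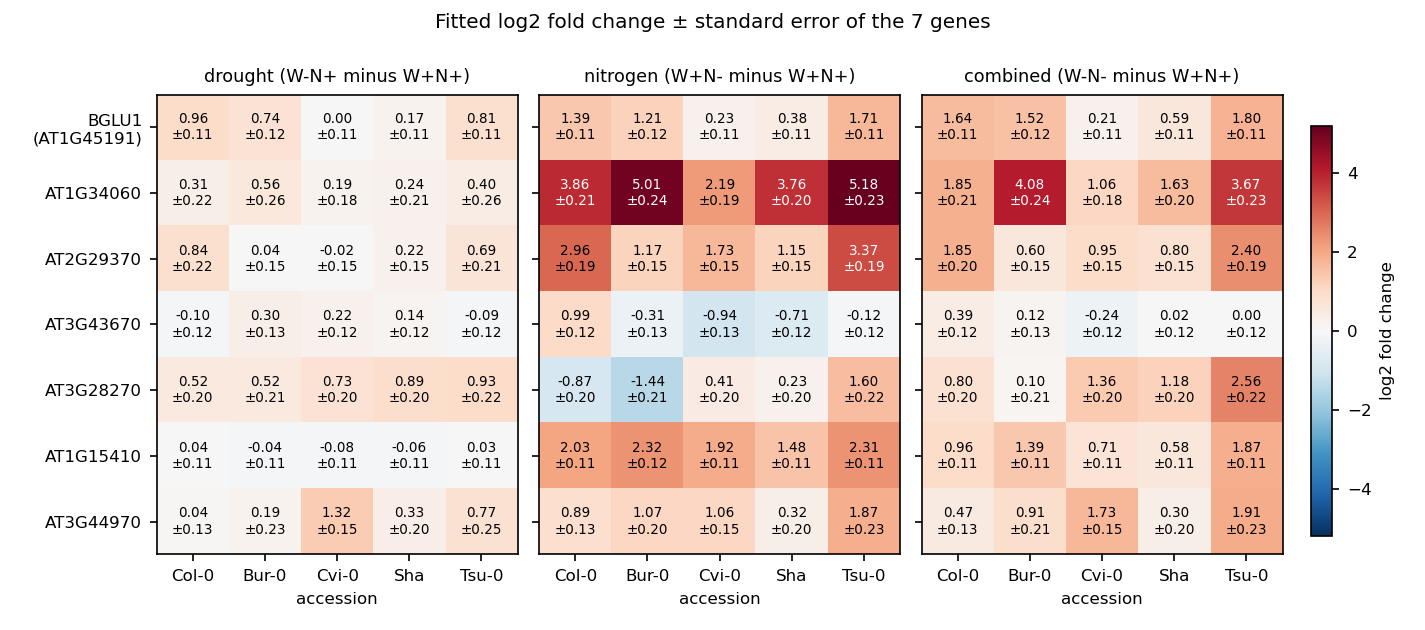
Fitted log2 fold change ± standard error (edgeR) against W+N+ of the same accession for the 7 genes (rows) in the 5 accessions (columns), with 1 panel each for drought, nitrogen deficiency and combined stress. Red marks higher and blue lower than control; AT1G34060 reaches 5.18 in Tsu-0 under nitrogen deficiency, and AT3G43670 and AT3G28270 hold both colours in that panel.

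BGLU1 was higher under every stress in Col-0, Bur-0 and Tsu-0 and stayed close to its control level in Cvi-0. In Tsu-0 its level was 42.6 to 59.1 CPM (median 51.0) in control libraries and 156 to 213 CPM (median 162) in nitrogen deficiency. In Cvi-0 it was 20.7 to 29.8 CPM (median 23.9) in control libraries and 24.6 to 33.4 CPM (median 28.1) in nitrogen deficiency. The Tsu-0 groups were far apart, whereas the Cvi-0 groups overlapped over all libraries, though not within P3ID33 (23.6 to 29.8 against 30.0 to 33.4 CPM) or P3ID34 (20.7 to 24.3 against 24.6 to 26.2 CPM). The fitted log2 change was 1.71 ± 0.11 in Tsu-0, 1.39 ± 0.11 in Col-0, 1.21 ± 0.12 in Bur-0, 0.38 ± 0.11 in Sha and 0.23 ± 0.11 in Cvi-0. Combined stress gave the same order, from 1.80 ± 0.11 in Tsu-0 to 0.21 ± 0.11 in Cvi-0. In drought, the changes were 0.96 ± 0.11 in Col-0, 0.81 ± 0.11 in Tsu-0 and 0.74 ± 0.12 in Bur-0, with all drought libraries above all controls in these 3 accessions, while Cvi-0 stayed at 0.0044 ± 0.11. The size of the response in Col-0 differed between the title codes: the fitted log2 change in combined stress was 2.18 within P3ID33 and 1.17 within P3ID34, and the control libraries of Col-0 were 27.0 to 36.8 CPM under P3ID33 and 39.7 to 39.9 CPM under P3ID34. In Bur-0, the drought change was 1.03 within P3ID33 and 0.42 within P3ID34.

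AT1G34060, the gene related to TAA1, showed the largest fitted changes of the 7. It was low in control rosettes of Tsu-0, with 0.780 to 1.97 CPM (median 1.25), and reached 31.8 to 67.7 CPM (median 41.8) in nitrogen deficiency. In Bur-0 the 5 control libraries held 1.19, 1.95, 1.15, 1.25 and 1.47 CPM, and the nitrogen-deficient libraries 40.6 to 56.6 CPM (median 46.7). Cvi-0 started higher, at 6.89 to 12.5 CPM (median 9.9955), and reached 32.97 to 60.8 CPM (median 41.4). The ranges under nitrogen deficiency overlapped among these accessions, and the control range of Cvi-0 lay above those of the others. The fitted ratio was larger where the control level was lower, 36.1-fold in Tsu-0 (log2 5.18 ± 0.23), 32.1-fold in Bur-0 (5.01 ± 0.24), 14.5-fold in Col-0 (3.86 ± 0.21), 13.6-fold in Sha (3.76 ± 0.20) and 4.56-fold in Cvi-0 (2.19 ± 0.19). The control level is the divisor of this ratio, so part of that order is built in. Sha had the widest spread in nitrogen deficiency, 28.1 to 86.2 CPM, and its lowest library still lay above every Sha control. In drought the log2 change was 0.19 to 0.56, with overlapping groups in all 5 accessions.

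AT1G34060 was also higher in combined stress in every accession, with no overlap between groups, and its fitted changes were smaller than in nitrogen deficiency. The log2 change was 4.08 ± 0.24 in Bur-0, 3.67 ± 0.23 in Tsu-0, 1.85 ± 0.21 in Col-0, 1.63 ± 0.20 in Sha and 1.06 ± 0.18 in Cvi-0. The log2 difference W-N- minus W+N- was -2.14 ± 0.18 in Sha, -2.01 ± 0.19 in Col-0 and -0.93 ± 0.18 in Bur-0. The Bur-0 value was 4.54 within P3ID33 and 3.56 within P3ID34, and the highest of its W-N- libraries, at 43.3 CPM, lay within the Bur-0 W+N- range.

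AT2G29370, the tropinone reductase-like gene, differed between accessions already in the control. Its level was 0.228 to 1.62 CPM (median 0.873) in Col-0 controls and 0.791 to 1.63 CPM (median 1.01) in Tsu-0 controls. In Bur-0 the 5 control libraries held 21.45, 28.6, 18.6, 25.15 and 20.02 CPM, more than any Col-0 or Tsu-0 library of any treatment. The lowest Col-0 value rests on 2 reads. In nitrogen deficiency it was 6.02 to 9.73 CPM (median 7.10) in Col-0, 8.38 to 15.4 CPM (median 12.2) in Tsu-0 and 44.0 to 59.4 CPM (median 50.6) in Bur-0. The accessions had the same order of mean level in control and nitrogen-deficient libraries, and the fitted ratio was largest in the accessions with the lowest control levels, 10.4-fold in Tsu-0 (log2 3.37 ± 0.19), 7.76-fold in Col-0 (2.96 ± 0.19), 3.32-fold in Cvi-0 (1.73 ± 0.15), 2.25-fold in Bur-0 (1.17 ± 0.15) and 2.22-fold in Sha (1.15 ± 0.15). As the ratio divides by the control level, part of this pattern is built in. In combined stress the log2 change was 2.40 ± 0.19 in Tsu-0 and 1.85 ± 0.20 in Col-0 and at most 0.95 ± 0.15 in the other accessions. Drought gave 0.84 ± 0.22 in Col-0 and 0.69 ± 0.21 in Tsu-0, with overlapping groups.

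AT1G15410, the racemase family gene, was higher in nitrogen deficiency in all accessions and differed most in combined stress. Control levels were close to each other, with medians of 21.3 CPM in Bur-0, 23.9 in Sha, 27.5 in Col-0, 28.0 in Tsu-0 and 28.2 in Cvi-0. Nitrogen deficiency gave 106 to 175 CPM (median 140) in Tsu-0 and 50.2 to 91.1 CPM (median 64.5) in Sha, and these groups did not overlap. The log2 change was 2.32 ± 0.12 in Bur-0, 2.31 ± 0.11 in Tsu-0, 2.03 ± 0.11 in Col-0, 1.92 ± 0.11 in Cvi-0 and 1.48 ± 0.11 in Sha. In combined stress the Tsu-0 libraries held 85.7 to 126 CPM (median 97.7), above all libraries of that treatment in the other accessions, of which the highest was a Bur-0 library at 60.5 CPM. The log2 change there was 1.87 ± 0.11 in Tsu-0, 1.39 ± 0.12 in Bur-0, 0.96 ± 0.11 in Col-0, 0.71 ± 0.11 in Cvi-0 and 0.58 ± 0.11 in Sha. In drought the log2 change was -0.08 to 0.04, the narrowest range of the 7 genes under any stress. AT1G15410 shares 249 exonic bases with genes on the opposite strand (AT1G15415 and the long non-coding RNA AT1G05163), and as the strand setting of the counting is not given in the sources used here, reads of the overlap cannot be assigned with certainty.

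**Figure D2:**
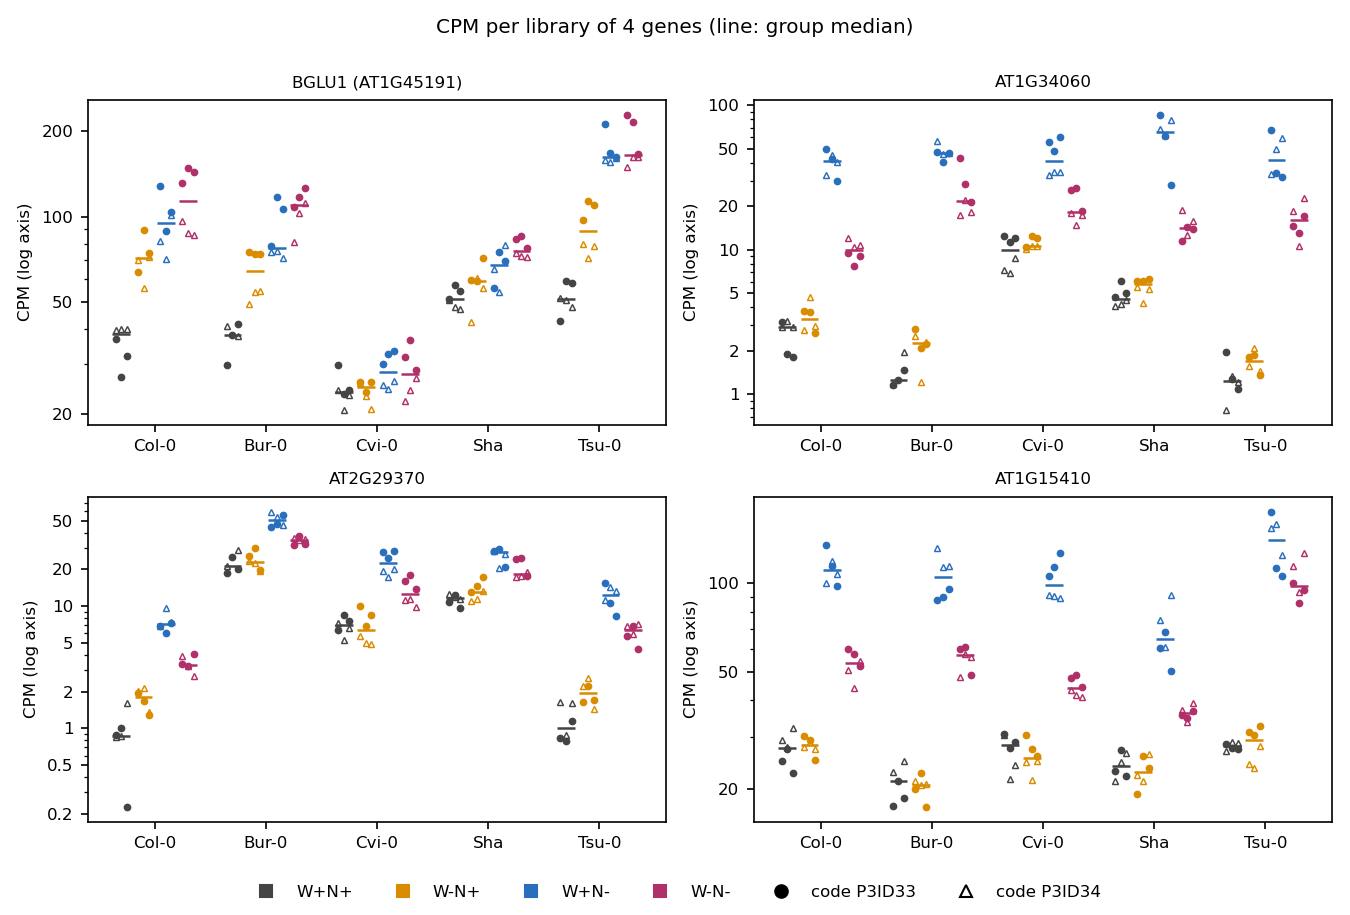
CPM per library on log axes for BGLU1, AT1G34060, AT2G29370 and AT1G15410 in the 5 accessions, coloured by treatment, with filled circles for code P3ID33, open triangles for P3ID34 and a line at each group median. The control points of AT2G29370 in Col-0 and Tsu-0 lie near 1 CPM and those in Bur-0 near 21 CPM, and the Cvi-0 points of BGLU1 stay within 20.7 to 36.5 CPM under every treatment.

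AT3G44970, the CYP708 gene, was set apart by its level in Col-0. Col-0 libraries held 26.4 to 76.3 CPM over all treatments, and Cvi-0 libraries 1.79 to 14.1 CPM. In Bur-0, Sha and Tsu-0 no library exceeded 2.74 CPM, and the lowest Tsu-0 library rests on 2 reads. In Cvi-0 the level was 1.79 to 4.52 CPM (median 3.52) in control libraries and 5.55 to 12.7 CPM (median 8.53) in drought, and these groups did not overlap. The log2 change in drought was 1.32 ± 0.15 in Cvi-0, 0.77 ± 0.25 in Tsu-0, 0.33 ± 0.20 in Sha, 0.19 ± 0.23 in Bur-0 and 0.04 ± 0.13 in Col-0. Nitrogen deficiency gave 1.87 ± 0.23 in Tsu-0, 1.07 ± 0.20 in Bur-0, 1.06 ± 0.15 in Cvi-0 and 0.89 ± 0.13 in Col-0, and the groups overlapped only in Sha, at 0.32 ± 0.20. In Tsu-0 the level was 0.284 to 0.680 CPM (median 0.454) in control libraries and 1.21 to 1.98 CPM (median 1.67) in nitrogen deficiency, so the ratio is one between low levels. Combined stress gave 1.91 ± 0.23 in Tsu-0 and 1.73 ± 0.15 in Cvi-0; the Tsu-0 value was 1.39 within P3ID33 and 2.42 within P3ID34.

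AT3G43670, the copper amine oxidase gene, was higher in nitrogen deficiency in Col-0 and lower in Cvi-0 and Sha. In Col-0 its level was 17.0 to 34.9 CPM (median 27.3) in control libraries and 42.1 to 62.0 CPM (median 53.6) in nitrogen deficiency. In Cvi-0 it was 17.6 to 27.1 CPM (median 22.3) in control libraries and 9.04 to 15.7 CPM (median 11.2) in nitrogen deficiency, and in Sha it was 64.1 to 76.3 CPM (median 73.4) and 29.6 to 57.4 CPM (median 46.0). The stressed libraries lay above all controls in Col-0 and below all controls in Cvi-0 and Sha, and this held within each title code. The log2 change was 0.99 ± 0.12 in Col-0, -0.12 ± 0.12 in Tsu-0, -0.31 ± 0.13 in Bur-0, -0.71 ± 0.12 in Sha and -0.94 ± 0.13 in Cvi-0. The Col-0 value was 1.33 within P3ID33 and 0.76 within P3ID34, and the Cvi-0 value -1.08 and -0.79. The summed floral level in Cvi-0 was 0.668 to 1.74 CPM (median 1.14) in W+N+ and 2.26 to 9.05 CPM (median 2.70) in W+N-, and its part in the Cvi-0 value was not tested. In Sha it was 3.76 to 5.32 CPM (median 5.04) in W+N+ and 3.26 to 4.88 CPM (median 3.97) in W+N-. In drought and in combined stress the groups overlapped in all 5 accessions, with log2 changes of -0.10 to 0.30 and of -0.24 to 0.39.

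AT3G28270, the AT14A-related membrane protein gene, was the other member with both directions in nitrogen deficiency. In Bur-0 the 5 control libraries held 59.7, 87.7, 134, 128 and 115 CPM, against 19.8 to 61.3 CPM (median 36.2) in nitrogen deficiency. In Tsu-0 the level was 4.08 to 10.5 CPM (median 6.60) in control libraries and 8.81 to 32.3 CPM (median 17.7) in nitrogen deficiency. Both pairs of groups overlapped over all libraries and did not overlap within either title code. The log2 change was -1.44 ± 0.21 in Bur-0, -0.87 ± 0.20 in Col-0, 0.23 ± 0.20 in Sha, 0.41 ± 0.20 in Cvi-0 and 1.60 ± 0.22 in Tsu-0. The Bur-0 value was -1.20 within P3ID33 and -1.75 within P3ID34, and the Tsu-0 value 1.47 and 1.70. In drought it was higher in all accessions, by 0.52 ± 0.20 in Col-0 and 0.52 ± 0.21 in Bur-0 up to 0.93 ± 0.22 in Tsu-0. These groups overlapped over all libraries, and within a code all drought libraries lay above the controls in every accession, except Cvi-0 within P3ID34. In combined stress Tsu-0 libraries held 26.6 to 50.8 CPM (median 36.6), above all Tsu-0 controls, with a log2 change of 2.56 ± 0.22. The stressed libraries also lay above all controls in Cvi-0 (1.36 ± 0.20) and Sha (1.18 ± 0.20). The groups overlapped in Col-0 (0.80 ± 0.20) and Bur-0 (0.10 ± 0.21).

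**Figure D3:**
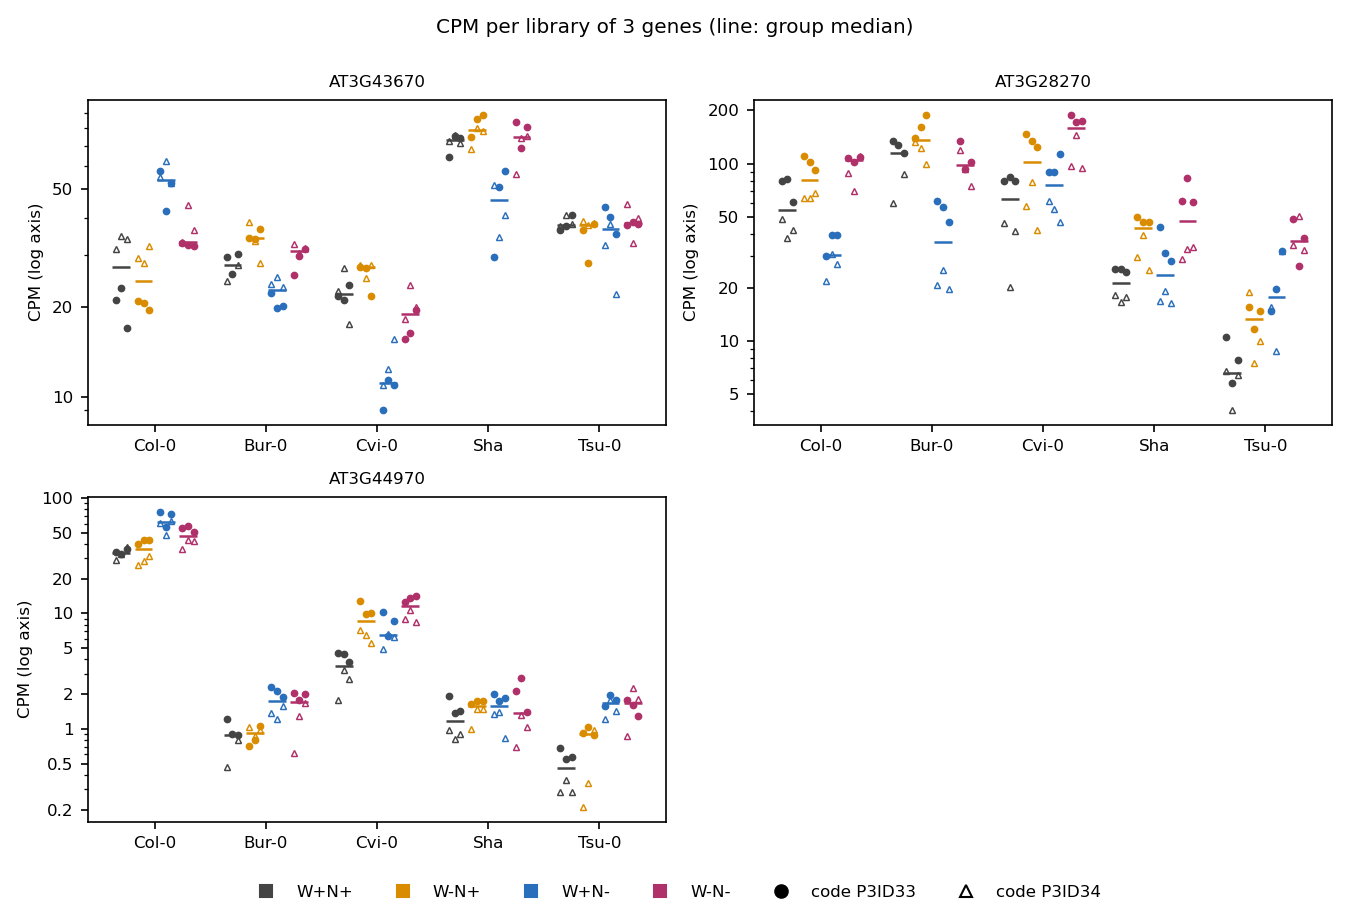
CPM per library on log axes for AT3G43670, AT3G28270 and AT3G44970 in the 5 accessions, with treatments by colour, title codes by symbol and a line at each group median. Nitrogen deficiency lies above control for AT3G43670 in Col-0 and below it in Cvi-0 and Sha, and the 3 control libraries of AT3G28270 under P3ID33 sit above those under P3ID34 in Col-0.

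Fitted values in combined stress lay below those in nitrogen deficiency for some of the genes and above them for others. AT1G34060, AT2G29370 and AT1G15410 were lower in W-N- than in W+N- in all 5 accessions, with log2 differences down to -2.14, -1.11 and -1.21. AT3G28270 was higher in W-N- than in W+N- in all 5 accessions, by 0.95 ± 0.20 in Sha and Cvi-0 up to 1.66 ± 0.20 in Col-0. AT3G43670 was lower in Col-0 (-0.61 ± 0.12) and higher in Bur-0, Cvi-0 and Sha (0.43 ± 0.12, 0.69 ± 0.13 and 0.73 ± 0.12), the reverse of its nitrogen response in Col-0, Cvi-0 and Sha. BGLU1 differed between these treatments by -0.02 to 0.31, less than its rise over control in Col-0, Bur-0 and Tsu-0. The nitrate concentration differed between W+N- and W-N-, while the nitrate supplied in total was similar. Effects of water and of nitrate concentration on these differences therefore cannot be told apart.

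The level averaged over the 4 treatments also differed in order and size among the accessions. These averages hold the stressed libraries and so carry the responses by which the genes were chosen, and the comparisons of averages are given as a description. In edgeR's quasi-likelihood F test over the accessions 7 of 7 genes passed an adjusted p of 0.05, as did 93.7% of all genes, and nothing is read from that count. The mean of the treatment means for AT3G44970 was 44.8 CPM in Col-0, 7.65 in Cvi-0, 1.46 in Sha, 1.27 in Bur-0 and 1.10 in Tsu-0, a fitted ratio of 44.2 between Col-0 and Tsu-0. For AT2G29370 it was 32.99 CPM in Bur-0, 17.7 in Sha, 12.5 in Cvi-0, 5.37 in Tsu-0 and 3.35 in Col-0, with a fitted ratio, which weighs treatments by their log values, of 12.3 between Bur-0 and Col-0. All libraries were counted under the same gene IDs, so a difference in RNA level between accessions and a difference in how well an accession's reads matched the gene models cannot be told apart.

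AT3G28270 stood at 96.8 CPM in Bur-0, 94.5 in Cvi-0, 68.1 in Col-0, 34.3 in Sha and 19.8 in Tsu-0. BGLU1 stood at 124 CPM in Tsu-0, 79.5 in Col-0, 74.0 in Bur-0, 63.3 in Sha and 26.4 in Cvi-0. AT3G43670 stood at 67.3 CPM in Sha, 37.2 in Tsu-0, 35.2 in Col-0, 28.7 in Bur-0 and 19.8 in Cvi-0. Tsu-0, with the largest fitted rise in nitrogen deficiency for both genes, held the highest average level for BGLU1, but the lowest for AT3G28270. These averages include the stressed libraries. In control libraries the BGLU1 means of Tsu-0 and Sha were close, at 51.6 and 51.4 CPM. AT1G15410 ranged from 37.8 CPM in Sha to 74.3 in Tsu-0 and AT1G34060 from 14.02 in Col-0 to 22.3 in Sha. On the fitted log2 scale, which weighs the treatments by ratio, AT1G34060 was highest in Cvi-0 and lowest in Tsu-0, by 1.48 ± 0.10.

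Of the 70 comparisons of these averages for an accession pair in a gene, 66 passed an edgeR adjusted p of 0.05. The averages hold the stressed libraries by which the genes were chosen. These calls and adjusted p-values are therefore a description, and nothing is read from their number. The 7 genes passed between Cvi-0 and Col-0 (66.9% over all genes), Sha and Col-0 (56.7%), Tsu-0 and Col-0 (54.8%), Sha and Bur-0 (59.2%), Tsu-0 and Bur-0 (57%), Sha and Cvi-0 (67.1%), Tsu-0 and Cvi-0 (68.6%) and Tsu-0 and Sha (61.2%). Between Bur-0 and Col-0, 5 of 7 passed (59.5%), and between Cvi-0 and Bur-0, 5 of 7 (65.9%). The pairs that did not pass were neighbours in the order of levels. They were BGLU1 in Col-0 and Bur-0 (log2 difference 0.09 ± 0.06, edgeR adjusted p 0.154), AT1G34060 in Bur-0 and Col-0 (0.0062 ± 0.12, adjusted p 0.976), AT3G28270 in Cvi-0 and Bur-0 (0.016 ± 0.10, adjusted p 0.898) and AT1G15410 in Cvi-0 and Bur-0 (0.09 ± 0.05, adjusted p 0.131). Of the 24 steps between neighbours in the order that passed, 8 missed the threshold in at least 1 of 15 alternatives. For BGLU1 the step from Bur-0 to Sha was 0.12 ± 0.06 (adjusted p 0.0451), which was lost in 11 of them, among them those without replicate letter a, b, c, e or f (adjusted p up to 0.283). For AT1G15410 the step between Col-0 and Cvi-0 (adjusted p 0.0284) was lost without letter a, c or e (up to 0.14) and with P3ID33 alone (0.933). For AT3G43670 the step between Tsu-0 and Col-0 (adjusted p 0.0269) was lost without letter b, c or f (up to 0.109) and with P3ID34 alone (0.578), and the step between Col-0 and Bur-0 (adjusted p 0.000469) with P3ID33 alone (0.64). For AT3G44970 the step between Bur-0 and Tsu-0 (adjusted p 0.0147) was lost without letter c or f (up to 0.149), and the step between Sha and Bur-0 (adjusted p 0.0203) without letter e (0.138) and with P3ID34 alone (0.603). For AT1G34060 the step between Col-0 and Tsu-0 (adjusted p 0.0104) was lost without letter a (0.0641) and with P3ID33 alone (0.195), and the step between Cvi-0 and Sha (adjusted p 2.69e-06) with P3ID34 alone (0.0515).

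The code in the library titles was not used in the selection. Libraries of P3ID34 were lower than those of P3ID33 for AT3G28270 (log2 difference -0.65 ± 0.06, edgeR adjusted p 2.18e-15), AT3G44970 (-0.48 ± 0.05, adjusted p 2.32e-13) and BGLU1 (-0.24 ± 0.03, adjusted p 5.23e-09). AT3G43670 was higher by 0.09 ± 0.04 (adjusted p 0.047), and without replicate letters b, c, d or e in turn it did not pass. AT1G34060 (-0.10 ± 0.06, adjusted p 0.174), AT2G29370 (-0.07 ± 0.05, adjusted p 0.256) and AT1G15410 (0.01 ± 0.03, adjusted p 0.821) did not pass. The 4 of 7 genes that passed compare with 41.8% of all genes. Every group held libraries of both codes, and the code was a term in the fit.

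Per exonic kilobase, which allows levels to be compared between genes, AT3G28270 had the highest control level of the 7 in Col-0 (28.5 CPM per kilobase), Bur-0 (50.7) and Cvi-0 (28.5). In Sha the highest was AT3G43670 (30.2 CPM per kilobase) and in Tsu-0 BGLU1 (24.3). The lowest was AT2G29370 in Col-0 (0.818 CPM per kilobase) and AT3G44970 in the other accessions, from 0.235 in Tsu-0 to 1.77 in Cvi-0. Which gene led in the control therefore depended on the accession.

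Over the 20 group means of log2 CPM, centred within accession, the Pearson correlations among BGLU1, AT1G34060, AT2G29370, AT1G15410 and AT3G44970 were 0.73 to 0.97 over 10 pairs of genes, highest for AT1G34060 and AT1G15410. The other 11 pairs, with AT3G43670 or AT3G28270, gave -0.25 to 0.35. The first 5 genes were grouped by a positive fitted nitrogen response in every accession. That rule uses the same group means, so high values within the group were partly set by it. The 20 points share 4 treatments and come from the same libraries for every gene, so these values are descriptions.

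Genes with the most similar pattern by the same measure were found among 17428 tested genes that are not members and whose mean reached 1 CPM. The closest to BGLU1 was AT4G04750, a major facilitator superfamily gene (r = 0.97). The closest to AT1G34060 was AT5G19740, a peptidase M28 gene (r = 0.99), followed by AT5G48370 and by APK4, an adenosine-5'-phosphosulfate kinase (both r = 0.99). The closest to AT1G15410 was RSH3, a RELA/SPOT homolog (r = 0.99), followed by GAMMA-VPE, a vacuolar processing enzyme (r = 0.99). For these, 1369 genes (AT1G34060) and 1495 genes (AT1G15410) had a correlation above 0.9, so many genes share these patterns. AT2G29370 was closest to the GDSL lipase gene AT1G28600 (r = 0.97), and the beta-glucosidase BGLU10 was the third (r = 0.96). AT3G44970 was closest to AT2G38370 (r = 0.93), with 7 genes above 0.9. No gene reached 0.9 for AT3G43670, where the highest was MYB88 (r = 0.81), or for AT3G28270, where AT4G11400 was highest (r = 0.89) and AFP3 was the third (r = 0.84).

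Relatives that were not members were compared with the same tests. Of 40 other beta-glucosidase genes 24 were tested, of which 0 passed the drought interaction, 5 the nitrogen interaction and 4 the combined interaction, against the 0.619%, 16.1% and 13.5% of all genes. Over the alternative fits these counts were 0 to 1, 1 to 7 and 0 to 7, with 1 and 0 for nitrogen deficiency and combined stress both without replicate letter b and with P3ID34 alone. Without letter a, d or f the combined stress count was 1, 1 and 0, without letter c it was 2, and without letter d the nitrogen count was 2, and without letter f 3. BGLU5 had the lowest adjusted p (5.73e-06 for nitrogen deficiency), with a log2 change of 1.14 in Tsu-0, 0.58 in Bur-0 and -0.08 in Cvi-0. BGLU10 (adjusted p 0.0188) had changes of 0.81 in Sha to 1.47 in Tsu-0, and BGLU47 (adjusted p 0.0208) had 0.82 in Col-0 and -0.27 in Sha. The calls for BGLU10 and BGLU47 did not pass within P3ID34 alone. BGLU3, whose transcript is the closest to that of BGLU1 (85.4% identity over 993 bases), did not pass (adjusted p 0.428 for nitrogen deficiency). Averaged over accessions, 10 of the 24 rose and 3 fell in drought, 8 rose and 10 fell in nitrogen deficiency and 13 rose and 4 fell in combined stress. Over all genes, 10.6% rose and 13.1% fell in drought, 36.6% and 31.4% in nitrogen deficiency and 30.6% and 26.6% in combined stress. The median change of the 24 was 0.13, -0.18 and 0.12 in these stresses, against 0.0018, 0.05 and 0.03 over all genes.

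The tropinone reductase-like genes near AT2G29370 showed the most calls among the relatives in the combined interaction. Of 9 tested, 0 passed the drought interaction (0.619% of all genes), 3 the nitrogen interaction (16.1%) and 7 the combined interaction (13.5%). Over the alternative fits 2 to 3 passed for nitrogen deficiency and 5 to 7 for combined stress. AT2G29170 had a log2 change in nitrogen deficiency of -0.11 in Col-0 and 1.61 in Bur-0 (adjusted p 5.87e-06), whereas AT2G29370 had the larger change in Col-0. AT2G29340 had a change in combined stress of -1.09 in Tsu-0 and -0.09 in Sha (adjusted p 6.55e-06). SAG13, a gene known as a marker of senescence, had a change in combined stress of -2.56 in Col-0 and 0.88 in Cvi-0 (adjusted p 0.000123), and in nitrogen deficiency of -1.02 and 1.75 (adjusted p 0.000682). AT2G29360, whose transcript is the closest to that of AT2G29370 (82.3% identity over 844 bases), had changes of -0.23 to 0.18 in nitrogen deficiency and did not pass (adjusted p 0.427). The heatmap of this gene group shows AT2G29370 as the gene with the highest nitrogen responses in Col-0 and Tsu-0. AT2G29370 was selected on such responses and its relatives were not, so this contrast is a description.

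**Figure D4:**
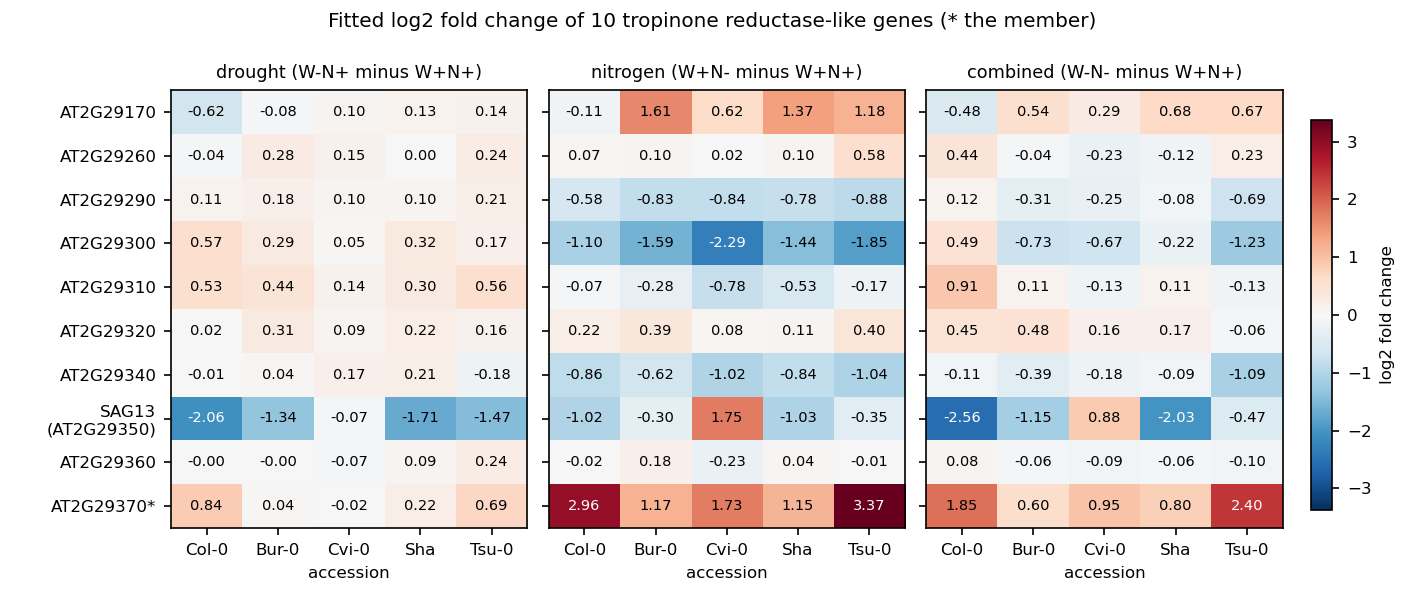
Fitted log2 fold change against W+N+ of the same accession for AT2G29370 (bottom row, with an asterisk) and 9 related genes, with 1 panel each for drought, nitrogen deficiency and combined stress. AT2G29370 is red in every accession in nitrogen deficiency (1.15 to 3.37), AT2G29340 is blue in every accession (-1.04 to -0.62), and SAG13 has both colours.

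The other families have few tested members. Of 6 other copper amine oxidase genes, 0 passed the drought interaction (0.619% of all genes), 1 the nitrogen (16.1%) and 2 the combined interaction (13.5%). Over the alternative fits 0 to 1 passed for nitrogen deficiency, with 0 without letter a, b, d or f, and 1 to 2 for combined stress, with 1 without letter c or d. AT4G12290 had changes in nitrogen deficiency of 1.89 in Col-0 to 2.63 in Bur-0, and in combined stress of 0.54 in Col-0 to 1.92 in Bur-0 (adjusted p 2.06e-07 for combined stress). AT1G31710 had a change in combined stress of -0.46 in Cvi-0 and 0.65 in Bur-0 (adjusted p 0.0201), and CuAO1, the closest in transcript to AT3G43670 (79.4% identity over 1979 bases), did not pass (adjusted p 0.21 for nitrogen deficiency). Of 3 tested genes of the TAA1 group (TAA1, TAR2 and AT1G34040), of 2 AT14A-like genes and of 1 CYP708 gene, CYP708A3, 0 passed any of the 3 interactions. AT1G34040, with 85.1% identity to AT1G34060 over 1191 bases, had an adjusted p of 0.316 for nitrogen deficiency. Of 2 genes of D-amino acid metabolism, ADCL passed the nitrogen interaction (adjusted p 0.00622), with changes of -0.22 in Bur-0 to 0.28 in Tsu-0, and did not pass without letter d.

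The 5 protein-coding genes on each side of each member make 70 neighbours, in the gene order of the TAIR10.1 annotation. Of these, 34 were tested. The drought, nitrogen and combined interactions were passed by 1, 6 and 8, against 0.619%, 16.1% and 13.5% of all genes. Over the alternative fits these counts were 0 to 1, 1 to 6 and 3 to 8. Without 1 letter they were 0 to 1, 3 to 5 and 4 to 6, with 3 for nitrogen deficiency without a or e and 4 for combined stress without a, c or d, and with P3ID34 alone 0, 1 and 3. In all, 10 of the 34 passed at least 1 interaction, compared with 22.3% of all genes. Of these, 4 flank AT2G29370 (AT2G29320, AT2G29340, SAG13 and SMO2-2), which had 8 tested neighbours. BGLU1 had only 4 tested neighbours, of which 0 passed. AT2G29320, AT2G29340 and SAG13 are also counted above among the tropinone reductase-like relatives. SAMC2, a S-adenosylmethionine carrier next to AT1G34060, passed the nitrogen interaction (adjusted p 0.00162). Its change in nitrogen deficiency was -0.76 in Cvi-0 and -0.19 to 0.11 in the other accessions. AT1G34060 itself rose in Cvi-0, by 2.19, the smallest of its fitted nitrogen responses, and a link with SAMC2 was not tested. AT3G28220, a TRAF-like gene 5 places from AT3G28270, had changes in nitrogen deficiency of -1.93 in Col-0, -1.45 in Sha and -0.28 in Cvi-0 (adjusted p 0.0019). In drought its change was 1.70 in Bur-0 and -0.11 in Col-0 (adjusted p 0.0277). AT1G15400, beside AT1G15410, had a change in combined stress of 0.71 in Bur-0 and 0.02 in Col-0 (adjusted p 0.0162), while for AT1G15410 the largest was in Tsu-0. The others were LTPG2 near AT3G43670 (adjusted p 0.0364 for nitrogen deficiency), PWP2 near AT1G15410 (0.0304 for nitrogen deficiency) and scpl48 near AT3G44970 (0.00565 for combined stress). Of the interaction calls named for relatives and neighbours, those of BGLU5 and AT2G29170 in nitrogen deficiency, of AT2G29340 and AT4G12290 in combined stress and of SAG13 in both passed in all 14 alternative fits of these tests, and each of the others missed the threshold in at least 1.

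**Figure D5:**
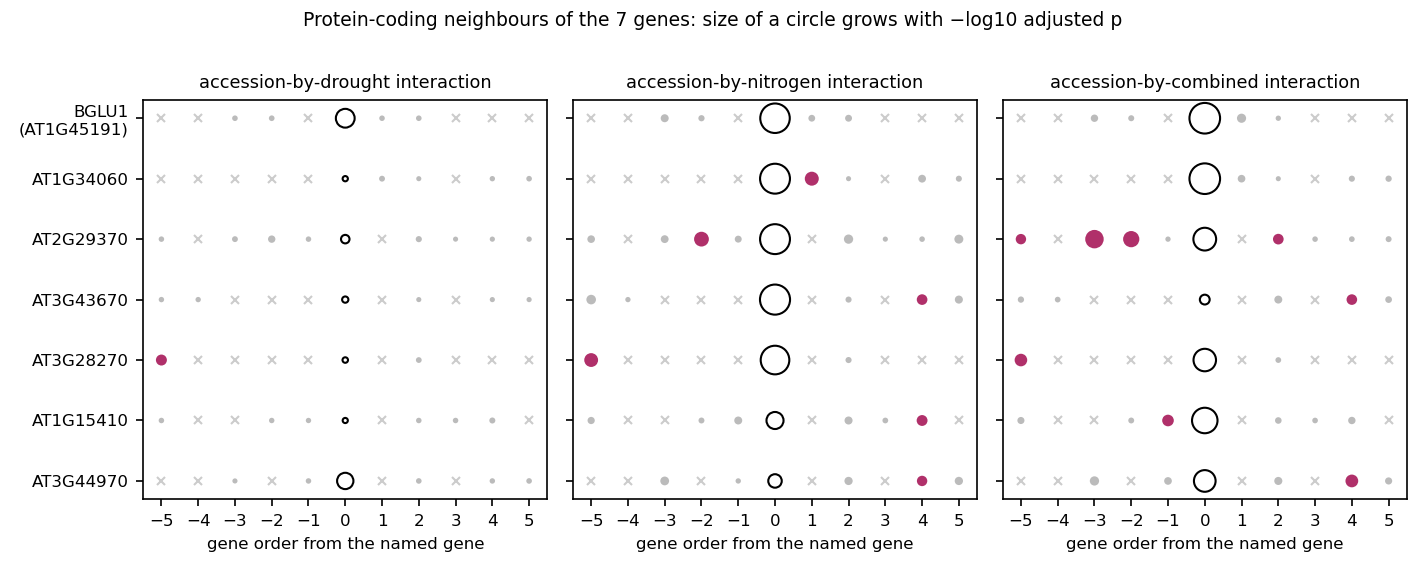
Adjusted p of the accession-by-stress interactions for the 7 genes (position 0, open circles) and 5 protein-coding genes on each side, 1 panel per stress; a larger circle has a smaller adjusted p, with the size held constant below 1e-15. Filled purple circles passed 0.05, grey circles did not, and crosses are genes that were not tested. None of the 4 tested neighbours of BGLU1 is purple, and 4 of the 8 tested neighbours of AT2G29370 are purple in combined stress.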

How the data were processed

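The deposited table holds raw read counts per gene, whole numbers that the authors did not normalize. Per the labels' protocols, RNA came from the RNeasy Plant Mini kit and went into TruSeq Stranded mRNA libraries. The submitters' processing notes name Trimmomatic 0.36 and HISAT2. How reads were counted, with which strand setting and on which build, is not given in the sources used here. Of 32833 gene IDs, 32548 matched the TAIR10.1 annotation, which was used only for names, exon length, gene order and transcript similarity (blastn 2.17.0); no coordinates or sequences are given, as the build of the counts is not known.

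The counts of all libraries were fitted in R 4.3.3 with edgeR 4.0.16 (TMM, filterByExpr, quasi-likelihood), with a term for each of the 20 groups and for the code in the titles, and p-values were adjusted over 20025 genes by the Benjamini-Hochberg method. Calls needed an adjusted p below 0.05. CPM values use TMM library sizes, and log2 CPM a prior count of 2. The fit was also run on simulated counts with known changes in some genes. Those counts held no other differences between accessions, treatments or codes, unlike the real ones, and nothing is read from them here. The members, gene lists, neighbours and tests were chosen with earlier results of these data known. All 7 members are named; of each family, up to 3 other genes with the lowest adjusted p over the interactions and the closest transcript, and neighbours with a called interaction.

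Alternatives were RLE size factors, no filter, no code term, each code alone, a replicate block with the code, limma 3.58.1 voom, DESeq2 1.42.0 (single contrasts), no distant libraries and each replicate letter left out. No libraries were near duplicates, as the lowest mean chi-square per gene between libraries of a group was 2.98.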

Additional observations from a re-analysis of the deposited data

Results flagged for a closer look

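Of 140 groups of 1 gene, accession and treatment, 5 held a library that stood apart from the others by Dixon's criterion, which chance alone meets in about 1 in 20 groups. BGLU1 (AT1G45191) was 213.4 CPM in Tsu-0 W+N- c, against 156 to 167 CPM in the other libraries of that group. AT2G29370 was 9.73 CPM in Col-0 W+N- d (others 6.02 to 7.36). AT3G43670 was 44.1 CPM in Col-0 W-N- d (others 32.1 to 36.4) and 28.2 CPM in Tsu-0 W-N+ e (others 36.3 to 38.9). AT3G44970 was 0.993 CPM in Sha W-N+ a (others 1.48 to 1.76).

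In nitrogen deficiency all AT3G43670 libraries lay above control in Col-0 and below it in Cvi-0 and Sha, with fitted log2 changes 1.93 apart between Col-0 and Cvi-0. As the gene was selected on this difference, it was not tested here.

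Among the neighbours and the relatives with the lowest adjusted p (up to 3 per family), 17 genes had responses that differed between accessions by an interaction test, with these lowest edgeR adjusted p over the 3 interactions. Further relatives with a call, which make 6 beta-glucosidase genes and 7 tropinone reductase-like genes in all, are not listed. Among relatives they were 5.73e-06 for BGLU5 (AT1G60260), 0.0188 for BGLU10 (AT4G27830), 0.0208 for BGLU47 (AT4G21760), 5.87e-06 for AT2G29170, 6.55e-06 for AT2G29340, 0.000123 for SAG13 (AT2G29350), 2.06e-07 for AT4G12290, 0.0201 for AT1G31710 and 0.00622 for ADCL (AT5G57850). Among the other neighbours they were 0.0442 for AT2G29320, 0.0363 for SMO2-2 (AT2G29390), 0.00162 for SAMC2 (AT1G34065), 0.0019 for AT3G28220, 0.0364 for LTPG2 (AT3G43720), 0.0162 for AT1G15400, 0.0304 for PWP2 (AT1G15440) and 0.00565 for scpl48 (AT3G45010).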

How the results depend on the processing

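Of the recomputed responses of the 7 genes, 1541 moved by less than the replicate spread and 34 by more, all of these with code P3ID33 or P3ID34 alone; the cause was not tested. All 7 genes passed the test over accession averages under every alternative that gives it. The number differing between codes was 4, and 3 to 5 over the alternatives. Counts over all genes that moved by more than 1.5 times were as follows. Without the code term the accession-by-drought interaction gave 62 genes and the accession-by-combined-stress interaction 1788, against 124 and 2712. With P3ID33 alone, with fewer samples, the accession-by-drought interaction and the accession-by-nitrogen-deficiency interaction gave 35 and 857 (3229 in the fit of all libraries), and the averaged drought effect 2318 (4737). With P3ID34 alone they gave 30 and 1358, the combined interaction 922 and the averaged drought effect 2456. Without each replicate letter in turn the drought interaction gave 56 to 90 genes, the nitrogen interaction 1955 to 3626 and the combined interaction 1612 to 2103. Letters did not pair libraries (deviations of same-letter libraries of an accession correlated with a median of -0.0070 over 177 pairs, against 0.0048 for other letters). A replicate block with the code gave 117, 3162 and 2689 genes for the 3 interactions and an adjusted p of 0.052 for BGLU1 in Bur-0 and Sha.

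Directions reversed in the differences given here. The log2 difference of AT1G34060 between Bur-0 and Col-0 was -0.12 with P3ID34 alone, -0.042 without the distant libraries, and -0.10 (without c, and -0.011 without f) to 0.054 without a replicate letter. With P3ID34 alone AT3G43670 gave -0.061 between Tsu-0 and Col-0, AT3G28270 -0.11 and AT1G15410 -0.12 between Cvi-0 and Bur-0. The code difference of AT1G15410 was -0.022 with the replicate block, and -0.018 (without f, and -0.0036 without d) to 0.025 without a replicate letter. In DESeq2 the tests over several contrasts were not run. Libraries below 1 CPM, such as AT2G29370 in Col-0 and AT3G44970 in Tsu-0 controls, rest on few reads, which limits their ratios.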
